A study of Arabidopsis thaliana with 2 samples.

Results

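Carriers that move sugar and nitrogen across membranes were examined in the siliques of Arabidopsis thaliana, the fruits that hold its seeds. They were chosen by gene symbol, as genes named SWEET, SUC, SUT, STP, PMT, INT, UMAMIT, AAP, LHT or NRT followed by a digit. Of 111 genes with such a symbol in the TAIR10.1 gene table, 12 had a named probe, out of 8818 named genes on the array. These were 11 of 15 SWEET genes and 1 of 14 NRT genes, against 0 of 45 UMAMIT, 0 of 8 AAP and 0 of 3 LHT genes, which encode carriers of amino acids. The set is therefore one of SWEET sugar carriers with a single nitrate carrier, NRT2.5, and it holds no amino acid carrier. Sucrose importers (SUC, SUT), monosaccharide importers (STP) and polyol and inositol carriers (PMT, INT) were likewise not among the named probes, and 12568 of the 21500 probes were unnamed here.

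Both genotypes were sampled as whole siliques at 12 DAF. Plants with the rge1-1 mutation, named for retarded growth of the embryo, were set against the Col-0 wild type, with no further treatment. RGE1, also known as ZHOUPI, is a transcription factor made in endosperm, which nourishes the embryo, and it had no named probe, so the labels could not be checked against it. On each of 2 replicate 2-colour arrays, rge1-1 RNA was labelled with Cy3 and Col-0 RNA with Cy5, and 0 arrays had the dyes swapped, so dye and genotype cannot be told apart. Seeds, seed coats and fruit wall were measured together. In such bulk tissue fewer cells of a type and less RNA per cell cannot be told apart. The labels do not say whether the arrays came from separate plants, so every p-value rests on the spread between 2 arrays, which may be technical. The test used below, limma, also draws the spread of a gene partly from all rows. Its p-values and intervals therefore do not rest on the SD of that gene alone.

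Each value is a log ratio of the 2 channels and carries the sign the authors deposited. Which genotype is the numerator is not settled by the labels, so positive or negative is not a rise or fall in rge1-1. Folds and log2 values assume that the deposited logarithm has base 10. Ratios hold no level, so neither the labelled tissue nor the abundance of any carrier could be checked. The array medians were 0.16 on replicate 1 and 0.02 on replicate 2 on the log2 scale, and the median absolute deviations were 0.19 and 0.12. A gene in the middle of the array therefore has a slightly positive ratio on replicate 1.

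SWEET proteins let sugars pass through a membrane down their gradient, in either direction. Members of clades I and II mainly carry hexoses and those of clade III sucrose, and those of clade IV sit in the tonoplast, the membrane of the vacuole, where they carry fructose and other sugars. No cytoplasmic bridges join mother plant and embryo, so sugars and amino acids are released from the seed coat and taken up again by endosperm and embryo. In Arabidopsis SWEET11, SWEET12 and SWEET15 release sucrose for the embryo, while UMAMIT proteins release amino acids and AAP proteins import them.

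SWEET9 was listed at exactly 0 on both arrays, which gives no measure of it, so 11 carriers could be tested. None of the 11 passed the test of its ratio against equal. By limma with Benjamini-Hochberg adjustment over 21425 rows, 0 of 11 carriers had an adjusted p under 0.05, as had 0% of all rows. At an unadjusted p under 0.05 limma also counted 0 of 11, against 6.6% of all rows. The adjusted p of these carriers was 0.665 or higher, and the 95% interval of limma included equality for 11 of 11. With 2 arrays an exact sign-flip test cannot go below p = 0.5. These p-values do not show that the carriers were alike in both genotypes. Where an interval is given below, it shows the sizes that the arrays leave room for.

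Of the 12 carriers, 5 had a positive ratio on both arrays, where 42.5% of all rows did, and 3 had a negative one on both, where 16.6% did. A further 3 had opposite signs, as had 37.8% of all rows, and SWEET9 was listed at 0. No carrier was at least 1.5-fold from equal with the same sign on both arrays (0 of 12, against 2.54% of all rows). On replicate 1 alone 3 of 12 were past 1.5-fold, against 15.9% of rows, and on replicate 2 alone 0 of 12 were, against 6.35%. The 3 were SWEET2, SWEET16 and SWEET17, all with negative ratios, a direction that 8.59% of rows took past 1.5-fold on that array. If the deposited logarithm has base 2, 0 of 12 were past 1.5-fold on replicate 1, where SWEET2 was then 1.39-fold from equal, against 1.14% of all rows. The plot of both arrays by gene shows these 3 as the points far to the left.

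**Figure D1:**
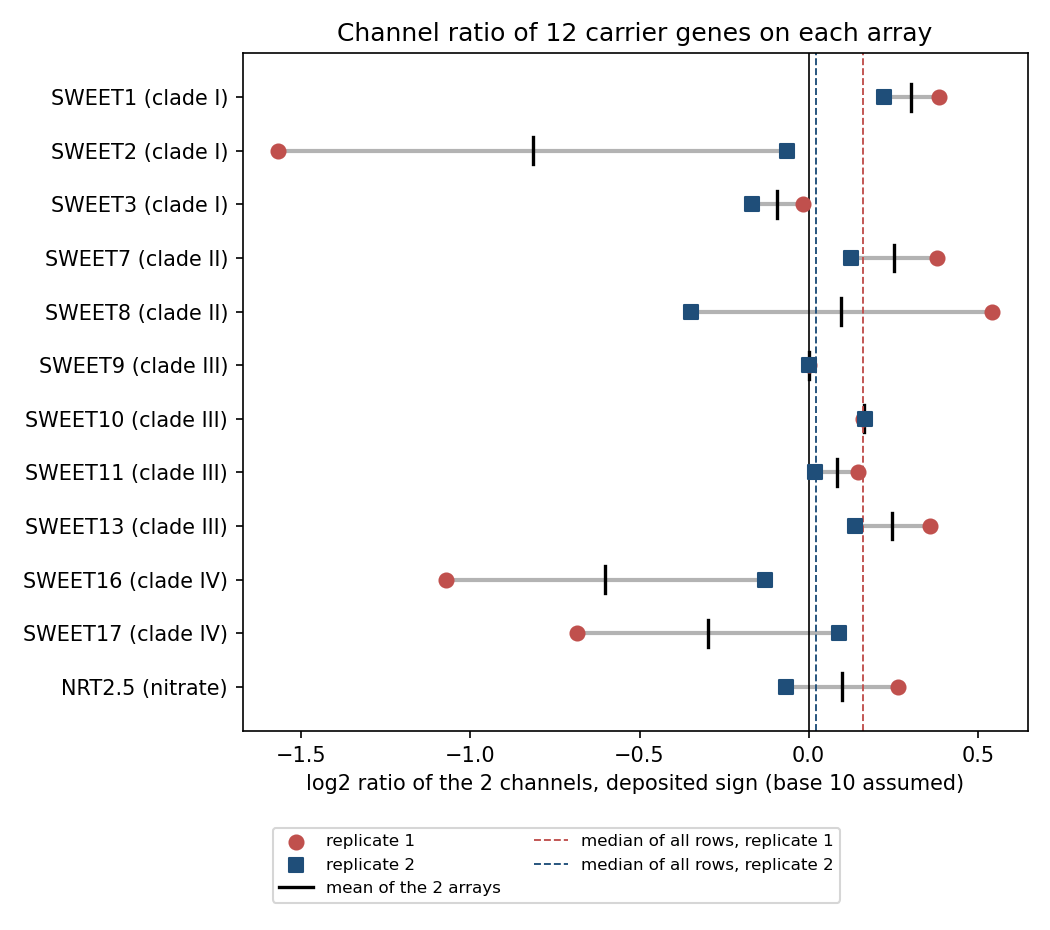
Log2 ratio of the 2 channels (horizontal axis, deposited sign, base 10 assumed) for 11 SWEET genes by clade and for NRT2.5. Circles are replicate 1, squares replicate 2, black ticks their mean, and dashed lines the median of all rows on each array; SWEET2, SWEET16 and SWEET17 lie between -1.57 and -0.68 on replicate 1 and between -0.13 and 0.09 on replicate 2.

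SWEET11 (AT3G48740), the sucrose carrier that supplies seeds, was the seed-feeding member of the set, and its ratio lay in the middle of both arrays. It had a log2 ratio of 0.15 on replicate 1 and 0.02 on replicate 2. Of all rows, 48.0% were at or below it on replicate 1 and 49.4% on replicate 2. Its mean was 0.08 ± 0.09 (SD, n = 2), equal to the median of all rows, with a 95% interval from -0.30 to 0.47 and a limma adjusted p of 0.787. When each array was centred on its median the mean of SWEET11 was -0.0081, so its small positive sign follows the shift of the arrays.

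The other sucrose carriers of clade III in the set were SWEET9, SWEET10 and SWEET13. SWEET13 (AT5G50800), which in anthers also moves gibberellin, had ratios of 0.36 and 0.14 on replicates 1 and 2, with a mean of 0.25 ± 0.16 (SD, n = 2) and a limma adjusted p of 0.665. SWEET10 (AT5G50790), the neighbour of SWEET13 in the gene table, had 0.16 on replicate 1 and 0.17 on replicate 2, with a mean of 0.16 ± 0.0033 (SD, n = 2). Its 95% interval, from -0.21 to 0.53, was far wider than this SD, and its limma adjusted p was 0.667. The ratios of SWEET10 were closer to each other than those of any other carrier except SWEET9, yet 50.2% of rows were at or below it on replicate 1 and 79.2% on replicate 2, since the arrays have different medians. SWEET9 (AT2G39060), which secretes nectar, was listed at exactly 0 on both arrays, as were 0.905% of all rows. Such a value can be a ratio that the software did not compute. The 3 clade III genes of the set with a measured ratio were positive on both arrays, as were 42.5% of all rows. After centring 2 of them, SWEET10 and SWEET13, still were, against 30.6% of all rows, but SWEET10 by only 0.00083 on replicate 1. SAG29, whose synonym is SWEET15, is a clade III carrier outside the set by its symbol. It was not positive on both arrays, with -0.68 on replicate 1 and 0.11 on replicate 2.

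The tonoplast members stood furthest from equal, and on replicate 1 only. SWEET2 (AT3G14770) is a clade I carrier of the tonoplast, known in roots for holding back the loss of sugar to the soil. It had a log2 ratio of -1.57 on replicate 1, or 2.97-fold from equal, and -0.06 on replicate 2, or 1.05-fold. Its mean was -0.82 ± 1.06 (SD, n = 2), with a 95% interval from -2.26 to 0.63 and a limma adjusted p of 0.665. The SD was larger than the size of the mean, and 2.68% of all rows had arrays at least as far apart as SWEET2.

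The clade IV genes had the same order of arrays. SWEET16 (AT3G16690), a vacuolar carrier of glucose, fructose and sucrose, had -1.07 on replicate 1, or 2.10-fold, and -0.13 on replicate 2, or 1.09-fold. Its mean of -0.60 ± 0.67 (SD, n = 2) had a 95% interval from -1.55 to 0.35 and a limma adjusted p of 0.665, and 7.39% of all rows had arrays at least as far apart. SWEET17 (AT4G15920), the fructose carrier of leaf and root vacuoles, had -0.68 on replicate 1 and 0.09 on replicate 2, with a mean of -0.30 ± 0.55 (SD, n = 2) and a limma adjusted p of 0.686. SWEET2 and SWEET16 were negative on both arrays, whereas SWEET17 changed sign.

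Set side by side, the 3 tonoplast genes and the other 8 SWEET genes did not overlap on replicate 1 and overlapped on replicate 2. SAG29, a plasma membrane carrier whose synonym is SWEET15, falls outside the set by its symbol and is not among these 8. It had -0.678 on replicate 1, beside SWEET17 at -0.684, so the wide gap between the groups depends on leaving it out. The other SWEET genes are those not assigned to the tonoplast, and SWEET3, SWEET7 and SWEET10 among them had no membrane assigned. On replicate 1 the tonoplast genes ran from -1.57 to -0.68, with a median of -1.07, and the other SWEET genes from -0.02 to 0.54, with a median of 0.26. On replicate 2 the tonoplast genes ran from -0.13 to 0.09, with a median of -0.06, and the other SWEET genes from -0.35 to 0.22, with a median of 0.07. Without SWEET9 the medians of the other SWEET genes were 0.36 on replicate 1 and 0.13 on replicate 2. The difference of the medians was thus -1.33 on replicate 1 and -0.14 on replicate 2. This grouping was made after the values were seen, so it is a description without a test, and without replicate 1 the median of the tonoplast genes was -0.06. By rank, 1.88%, 3.98% and 7.35% of all rows were at or below SWEET2, SWEET16 and SWEET17 on replicate 1, against 30.8%, 22.1% and 65.0% on replicate 2. The part of array quality in this difference between replicates was not tested.

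**Figure D2:**
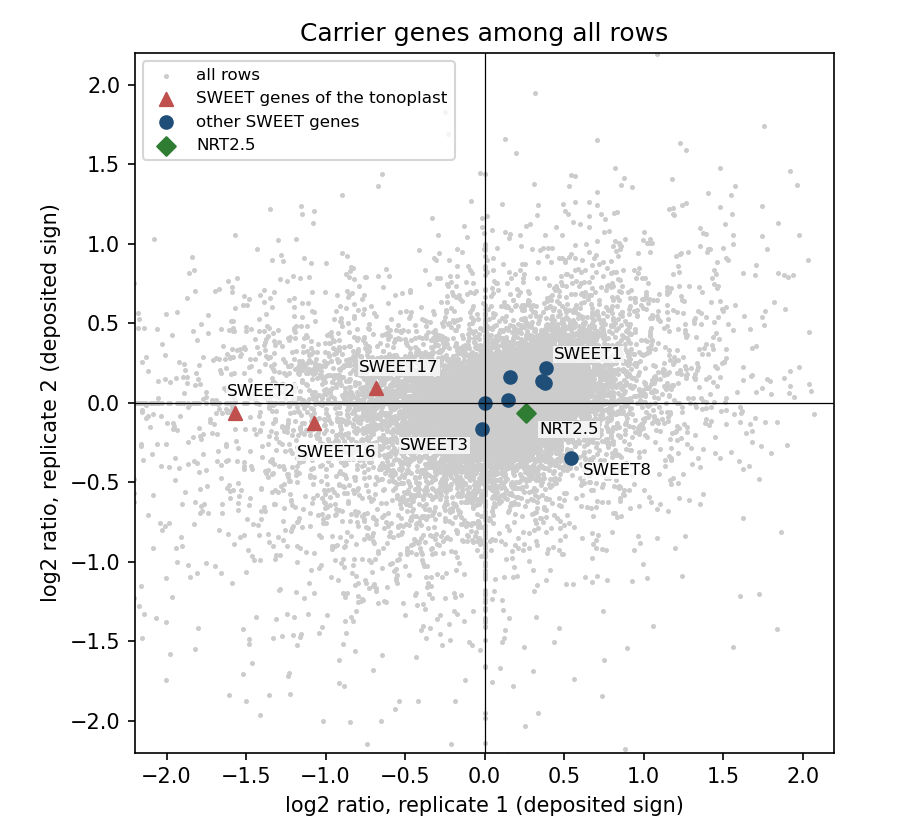
Log2 ratio on replicate 1 (horizontal axis) against replicate 2 (vertical axis), deposited sign. Grey points are all rows, of which 169 lie outside the axes, triangles the 3 tonoplast SWEET genes, circles the other 8 SWEET genes and the diamond NRT2.5; the triangles spread along the horizontal axis only, and the other carriers lie inside the main cloud.

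Clade I also held SWEET1 and SWEET3, with ratios of opposite sign to each other. SWEET1 (AT1G21460), a glucose carrier of the plasma membrane, had 0.39 on replicate 1 and 0.22 on replicate 2. Its mean of 0.30 ± 0.12 (SD, n = 2), or 1.23-fold, was the highest of the 12 carriers, with a 95% interval from -0.10 to 0.70, an unadjusted limma p of 0.0937 and an adjusted p of 0.665. Of all rows, 81.4% were at or below SWEET1 on replicate 1 and 86.1% on replicate 2. SWEET3 (AT5G53190) had -0.02 on replicate 1 and -0.17 on replicate 2, with a mean of -0.09 ± 0.11 (SD, n = 2) and a limma adjusted p of 0.769. Clade I thus held both the highest mean of the set, SWEET1, and the lowest, SWEET2.

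In clade II the arrays had the same sign for 1 gene and opposite signs for the other. SWEET7 (AT4G10850) had 0.38 on replicate 1 and 0.13 on replicate 2, with a mean of 0.25 ± 0.18 (SD, n = 2) and a limma adjusted p of 0.665. SWEET8 (AT5G40260), also known as RUPTURED POLLEN GRAIN1 for its part in building the pollen wall, had 0.54 on replicate 1 and -0.35 on replicate 2. Its mean was 0.10 ± 0.63 (SD, n = 2), with a 95% interval from -0.81 to 1.00. SWEET8 was the highest of the carriers on replicate 1 and the lowest on replicate 2, and 8.27% of all rows had arrays at least as far apart.

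NRT2.5 (AT1G12940), a high-affinity nitrate carrier that in Arabidopsis is induced by long nitrogen starvation, was the whole nitrogen side of the set. It had 0.26 on replicate 1 and -0.07 on replicate 2, with a mean of 0.10 ± 0.23 (SD, n = 2), a 95% interval from -0.38 to 0.58 and a limma adjusted p of 0.795. The sign differed between the arrays, and 66.0% of rows on replicate 1 and 30.6% on replicate 2 were at or below NRT2.5.

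The comparison of sugar with nitrogen carriers rests on 11 genes against 1. The sugar carriers had a median log2 ratio of 0.15 on replicate 1 and 0.02 on replicate 2, against 0.26 and -0.07 for NRT2.5. The sugar minus nitrogen difference was -0.12 on replicate 1, 0.09 on replicate 2 and -0.02 for the means of the arrays, so its sign depended on the array. Taken as a difference of averages over genes it was -0.16. The median of the means was 0.08 for the sugar carriers, or 0.09 without SWEET9, and 0.08 for all rows. Relative to the array medians, 4 of the 10 sugar carriers with a measured ratio were positive and 4 negative on both arrays, where 30.6% of all rows were positive and 30.6% negative. The positive ones include SWEET10, at 0.00083 on replicate 1, and the negative ones SWEET11, at -0.0027 on replicate 2. The ranks of the carriers, plotted for each array, ran from 1.88% for SWEET2 to 91.3% for SWEET8 on replicate 1 and from 8.26% for SWEET8 to 86.1% for SWEET1 on replicate 2.

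**Figure D3:**
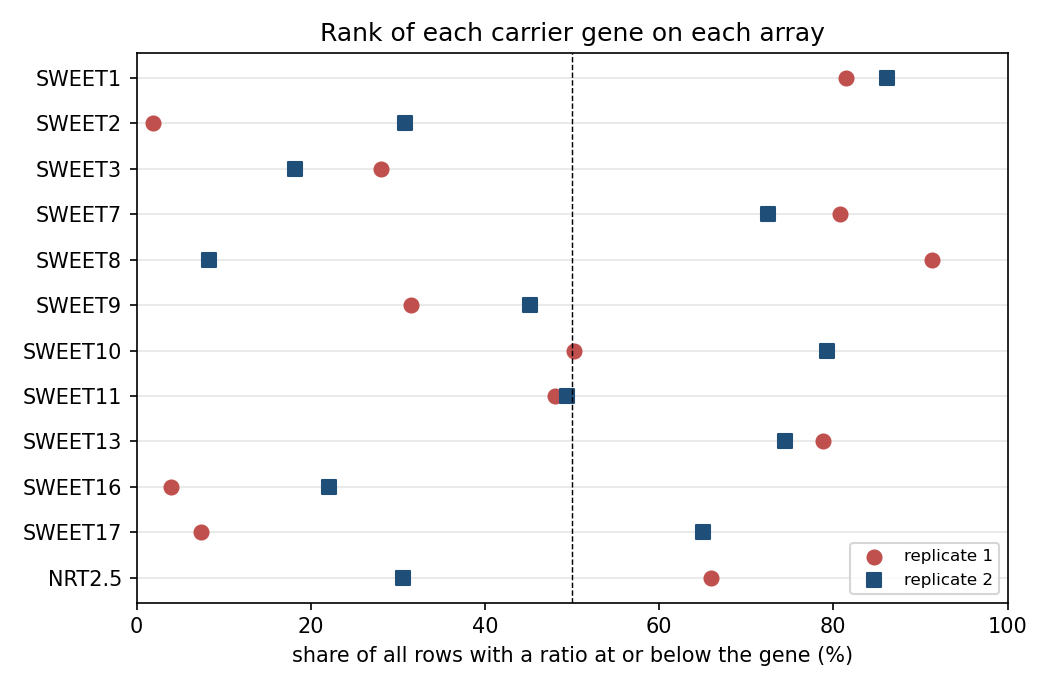
Share of all rows (percent, horizontal axis) with a ratio at or below that of each carrier on replicate 1 (circles) and replicate 2 (squares); the dashed line marks the middle of the array. SWEET11 lies next to the middle on both arrays, SWEET1, SWEET7 and SWEET13 lie above it on both, and SWEET8 lies at 91.3% on replicate 1 and at 8.26% on replicate 2.

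Ordered by mean log2 ratio, the carriers with a measured ratio ran from SWEET1 at 0.30 through SWEET7 at 0.25, SWEET13 at 0.25, SWEET10 at 0.16, NRT2.5 at 0.10, SWEET8 at 0.10, SWEET11 at 0.08, SWEET3 at -0.09, SWEET17 at -0.30 and SWEET16 at -0.60 to SWEET2 at -0.82. Each gap between neighbours in this order was smaller than the SD of at least 1 of both genes, except that between SWEET11 and SWEET3, which were 0.08 ± 0.09 and -0.09 ± 0.11 (SD, n = 2 each). The differences between neighbours were not tested.

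Other genes of seed supply were few among the named probes. SAG29 (AT5G13170), whose synonym is SWEET15 and which releases sucrose in seeds beside SWEET11, had a log2 ratio of -0.68 on replicate 1 and 0.11 on replicate 2, with a mean of -0.28 ± 0.56 (SD, n = 2) and a limma adjusted p of 0.695. It thus had the pattern of SWEET17, low on replicate 1 only, although it is a clade III carrier of the plasma membrane and not of the tonoplast. Of 6 further carriers of sugars or plastid metabolites, 0 passed limma's test, as did 0% of all rows. On both arrays 1 was positive and 1 negative, against 42.5% and 16.6% of all rows. A further 3 had opposite signs, as had 37.8% of all rows, and 1 was listed at 0 on replicate 2. The mean ratios of the 6 ran from -0.18 to 0.17. Among the 6 were the tonoplast monosaccharide carriers, which load sugar into the vacuole. TMT1 had 0.23 and -0.04 on replicates 1 and 2, TMT2 had -0.35 and exactly 0, and TMT3 had 0.09 and -0.04. No TMT gene was as low on replicate 1 as the 3 tonoplast SWEET genes.

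The glucosinolate carriers GTR1 and GTR2, which bring these defence compounds to seeds, were the 2 named genes of the list of further nitrogen carriers. Both had opposite signs on the arrays, as had 37.8% of all rows. GTR1 had -0.06 and 0.09 and GTR2 had -0.34 and 0.32 on replicates 1 and 2. The list of sucrose cleavage genes had 1 named gene, cwINV6, with -0.04 and -0.02 on replicates 1 and 2. It encodes a fructan exohydrolase, so its ratio is not read as one of sucrose cleavage. Proton pumps, which power the importers, and phloem markers had 0 named genes.

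Markers of the tissues of the silique were given for the same arrays. The 3 named endosperm genes had log2 ratios from -0.79 to 0.62 on replicate 1 and from -0.91 to 0.0011 on replicate 2, and the 4 photosynthesis genes from -1.22 to 1.199 and from -0.91 to 0.24. The 2 seed coat genes ran from 0.29 to 0.43 and from -0.19 to 0.42, and the 1 storage protein gene, PAP85, had 0.28 and 0.11. Of the endosperm genes, AGL62 was negative on both arrays (-0.41 and -0.91) and 2 had opposite signs. Of the seed coat genes, AT3G50990 was positive on both (0.43 and 0.42) and 1 had opposite signs. Unadjusted limma p was 0.0395 for AGL62 and 0.0354 for AT3G50990, where 6.6% of all rows were under 0.05, and adjusted p was 0.665 for each. The other endosperm genes, AGL38 and AT1G71250, had an unadjusted limma p of 0.223 and 0.281, and BAN of the seed coat had 0.804. Of the photosynthesis genes, 1 was negative on both arrays and 3 had opposite signs. Over all rows, 42.5% were positive on both arrays, 16.6% were negative on both and 37.8% had opposite signs. The part of these markers in the carriers' ratios was not tested.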

How the data were processed

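The authors deposited 1 table of log10 ratios of the 2 channels for 21500 probes on 2 arrays. The ratios come from Agilent Feature Extraction 7.1.1, per the submitters' processing notes. How background and dyes were corrected is not given in the sources used. The base is not written in the table and was read as log10 from the form of the values. RNA was extracted with an RNAqueous kit and amplified linearly, per the labels' protocols.

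Of the probes, 8893 had 1 gene in the platform annotation, 39 had several and were not named, and 8875 matched the TAIR10.1 gene table by gene ID. Ratios were brought to log2, probes were averaged per gene (each of the 12 carriers had 1), and 21425 rows were tested two-sided against 0 with limma 3.58.1 under R 4.3.3 (intercept fit, eBayes, Benjamini-Hochberg), first tested on simulated data. The number of arrays limits the precision. The rule named every member. Members and lists were chosen with earlier results of these data known. A gene with the symbol BAT1 that encodes an acyltransferase was left out of the carrier list. Alternatives were centring, scaling, leaving out zeros, log2 as the base, each probe alone, other moderation and single arrays.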

Additional observations from a re-analysis of the deposited data

How the results depend on the processing

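Each ratio already pairs the genotypes within an array, so there was no further block to fit. The count of 0 limma calls over all rows became 55 without values of exactly 0, none of them among the carriers, and stayed at 0 with centring, scaling, each probe alone, robust eBayes or no moderation. The median of the sugar carriers, 0.08, was -0.0081 with centring and -0.076 with centring and scaling. With centring the mean of SWEET11 was -0.0081, and with centring and scaling it was -0.0073, that of SWEET8 -0.076 and that of NRT2.5 -0.013, all of opposite sign to the main values. The count of carriers past 1.5-fold with 1 sign, 0 on both arrays, was 0 without replicate 1 and 3 without replicate 2. It was 0 at a limit of 1.2-fold or 2-fold. Read as log2, the values shrink by construction, the mean of SWEET2 to -0.25 and the median of the tonoplast genes to -0.18, and limma's p-values stay as they are. The sugar minus nitrogen difference, -0.02 by medians, was -0.16 by means, a move no larger than its SD of 0.14 between the arrays. Of 55 recomputed values of the 11 carriers with a measured ratio, 4 changed sign and 0 passed the test, with adjusted p from 0.535 to 0.993. All 4 changes came with centring or with centring and scaling, and the other settings counted cannot change a carrier's sign. Single arrays were not counted, and on replicate 2 alone SWEET8, SWEET17 and NRT2.5 had the opposite sign to their means. A filter on dim probes was not run, since no intensities were used. A comparison with amino acid carriers alone had no members, and the one without INT and PMT genes could not differ. The tonoplast alternatives were chosen after seeing the data.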

Other observations

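The NRT1/PTR family, relatives of the nitrate carrier NRT1.1 that move nitrate, peptides, hormones or glucosinolates, was looked up by synonym in the gene table after values were seen. Of its 11 named genes, GTR1 and GTR2 included, 6 had opposite signs on the arrays, as had 37.8% of all rows, 3 were positive on both (42.5% of all rows) and 2 negative on both (16.6%). None of these genes has a symbol of the rule, so they are not in the comparison of sugar with nitrogen carriers. The median of their mean log2 ratios was 0.04. AT3G21670, with the synonym NPF6.4, had -1.94 on replicate 1 and -0.91 on replicate 2, and 1.06% and 1.76% of all rows were at or below it. Its mean was -1.43 ± 0.73 (SD, n = 2), with an unadjusted limma p of 0.0215 and an adjusted p of 0.665, so it did not pass the test over all rows. It was the 1 gene of the family at least 1.5-fold from equal with the same sign on both arrays, as were 2.54% of all rows. AT1G59740, with the synonym NPF4.3, had 0.87 and 0.25 on replicates 1 and 2, with a mean of 0.56 ± 0.44 (SD, n = 2) and a limma adjusted p of 0.665.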
